A study of Homo sapiens with 4 samples.

Results

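The cytoplasmic tyrosine tRNAs were represented by 2 of the 48 tRNA references in the tables, Tyr-GTA-2-1 and Tyr-ATA-1-1, found by their amino acid name. Each has 76 nucleotides with a canonical tRNA number, and all 76 of each were used. The other 46 references belong to other amino acids. The names match the RefSeq tRNA genes TRY-GTA2-1 and TRY-ATA1-1, and the letters GTA and ATA give the anticodon. The tRNA came from HCT116, a human cell line established from a colorectal carcinoma, in 2 genotypes: TRMT1L KO, in which TRMT1L is knocked out, and WT. Both were grown in the same medium, and each genotype had 2 libraries. The labels do not say whether the TRMT1L KO line is 1 clone or whether replicate libraries were grown as separate cultures. The p-values below therefore cover no more than library-to-library spread, which may be technical. TRMT1L RNA or protein was not measured, so the knockout itself has no check here.

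The tRNA was read by Nano-tRNAseq, in which the native RNA strand passes through a nanopore and a base caller turns the current into bases. Modified nucleotides disturb the current, and the caller then reads a wrong base (mismatch), skips a base (deletion) or adds one (insertion). The 3 rates were given for each nucleotide, and their sum is called the summed error here. A rate of this kind does not name a modification, does not measure what share of molecules carries it, and can move either way when a modification is lost. In a bulk library it also cannot tell a small change in every molecule from a large change in a few.

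A tRNA folds into an acceptor stem, a D arm, an anticodon arm, a variable region and a T arm, with the D and T loops touching each other in the elbow of the molecule. TRMT1 and TRMT1L are related methyltransferases of guanosine. TRMT1 adds a pair of methyl groups to the guanosine at position 26, the joint between the D and anticodon arms, in many tRNAs. The study's title assigns the same modification at position 27 of tyrosine tRNA, the first nucleotide of the anticodon stem, to TRMT1L. The comparison of TRMT1L KO with WT asks where along tyrosine tRNA the readout depends on TRMT1L.

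At position 27, deletions fell in TRMT1L KO cells in both tyrosine references and mismatches rose. For Tyr-GTA-2-1 the deletion rate at position 27 was 3.43 and 3.99% in TRMT1L KO libraries, against 31.3 and 32.7% in WT libraries. The Tyr-ATA-1-1 rate was 10.3 and 9.75% in TRMT1L KO libraries, against 30.5 and 29.8% in WT libraries. The groups were far apart in both references, and the libraries of a genotype lay close together. The change was -28.3 percentage points for Tyr-GTA-2-1 (adjusted p = 3.62e-12) and -20.1 points for Tyr-ATA-1-1 (adjusted p = 1.77e-08), both from limma with Benjamini-Hochberg adjustment over the 3621 numbered positions of all references. All adjusted p-values of single positions below come from that fit, made apart for each kind of error, and the threshold was 0.05.

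Mismatches at position 27 went the other way. For Tyr-GTA-2-1 they were 27.7 and 33.5% in TRMT1L KO libraries, against 19.1 and 17% in WT libraries (change 12.6 points, adjusted p = 0.0119). For Tyr-ATA-1-1 they were 35.9 and 32.9% in TRMT1L KO libraries, against 17.9 and 15.0% in WT libraries (change 17.9 points, adjusted p = 0.000308). The 2 TRMT1L KO libraries were above the WT libraries in both references. The Tyr-GTA-2-1 call was lost without WT replicate 1 (adjusted p = 0.0624) and without WT replicate 2 (adjusted p = 0.169).

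Because mismatches and deletions moved in opposite directions, the summed error at position 27 changed less than deletions alone. For Tyr-GTA-2-1 it was 35.1 ± 4.73% in TRMT1L KO and 54.7 ± 0.179% in WT (SD, n = 2 each), a change of -19.6 points (limma adjusted p = 0.00608). For Tyr-ATA-1-1 it was 48.3 ± 1.92% in TRMT1L KO and 52.7 ± 1.00% in WT (SD, n = 2 each), a difference of -4.37 points (limma adjusted p = 0.585, not past the threshold). Insertions at position 27 of Tyr-GTA-2-1 were 0.587 and 0.863% in TRMT1L KO libraries, against 4.42 and 4.85% in WT libraries (change -3.91 points, adjusted p = 0.00813). That insertion call was lost without TRMT1L KO replicate 1 (adjusted p = 0.260) or without TRMT1L KO replicate 2 (adjusted p = 0.164).

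Position 26 showed the same exchange of deletions for mismatches. For Tyr-GTA-2-1 the deletion rate was 9.21 and 9.91% in TRMT1L KO libraries, against 43.6 and 45.6% in WT libraries (change -35.0 points, adjusted p = 2.05e-11). Its mismatch rate was 71.3 and 66.7% in TRMT1L KO libraries, against 16.9 and 14.8% in WT libraries (change 53.1 points, adjusted p = 1.10e-07). In every library of one genotype the leading kind of error at this nucleotide thus differed from every library of the other: mismatches led in TRMT1L KO and deletions in WT.

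For Tyr-ATA-1-1 the deletion rate at position 26 was 5.08 and 6.68% in TRMT1L KO libraries, against 30.96 and 33.7% in WT libraries (change -26.5 points, adjusted p = 6.39e-11). Its mismatch rate was 39.5 and 42.8% in TRMT1L KO libraries, against 14.6 and 13.99% in WT libraries (change 26.8 points, adjusted p = 4.70e-06). In this reference the gain and the loss were of nearly equal size, and the summed error was 47.97 and 53.1% in TRMT1L KO libraries, against 48.8 and 51.2% in WT libraries, with overlapping groups (adjusted p = 0.977). At position 26 of Tyr-GTA-2-1 the sum was 79.04 ± 2.72% in TRMT1L KO and 60.9 ± 0.0958% in WT (SD, n = 2 each), and it rose by 18.1 points (limma adjusted p = 0.00158).

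The make-up of the error puts both positions on one scale. At position 26, deletions were 12.1% of the summed error in TRMT1L KO and 73.2% in WT for Tyr-GTA-2-1, and 11.6% in TRMT1L KO and 64.7% in WT for Tyr-ATA-1-1. At position 27 they were 10.6% of the summed error in TRMT1L KO and 58.5% in WT for Tyr-GTA-2-1, and 20.8% in TRMT1L KO and 57.2% in WT for Tyr-ATA-1-1. The other 46 references had a median deletion share at position 26 of 31.1% in TRMT1L KO and 30.9% in WT, and at position 27 of 27.9% in TRMT1L KO and 27.3% in WT. A deletion within a run of like bases can be placed at any base of the run, and whether deletions of 26 and 27 were placed apart was not tested.

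**Figure D1:**
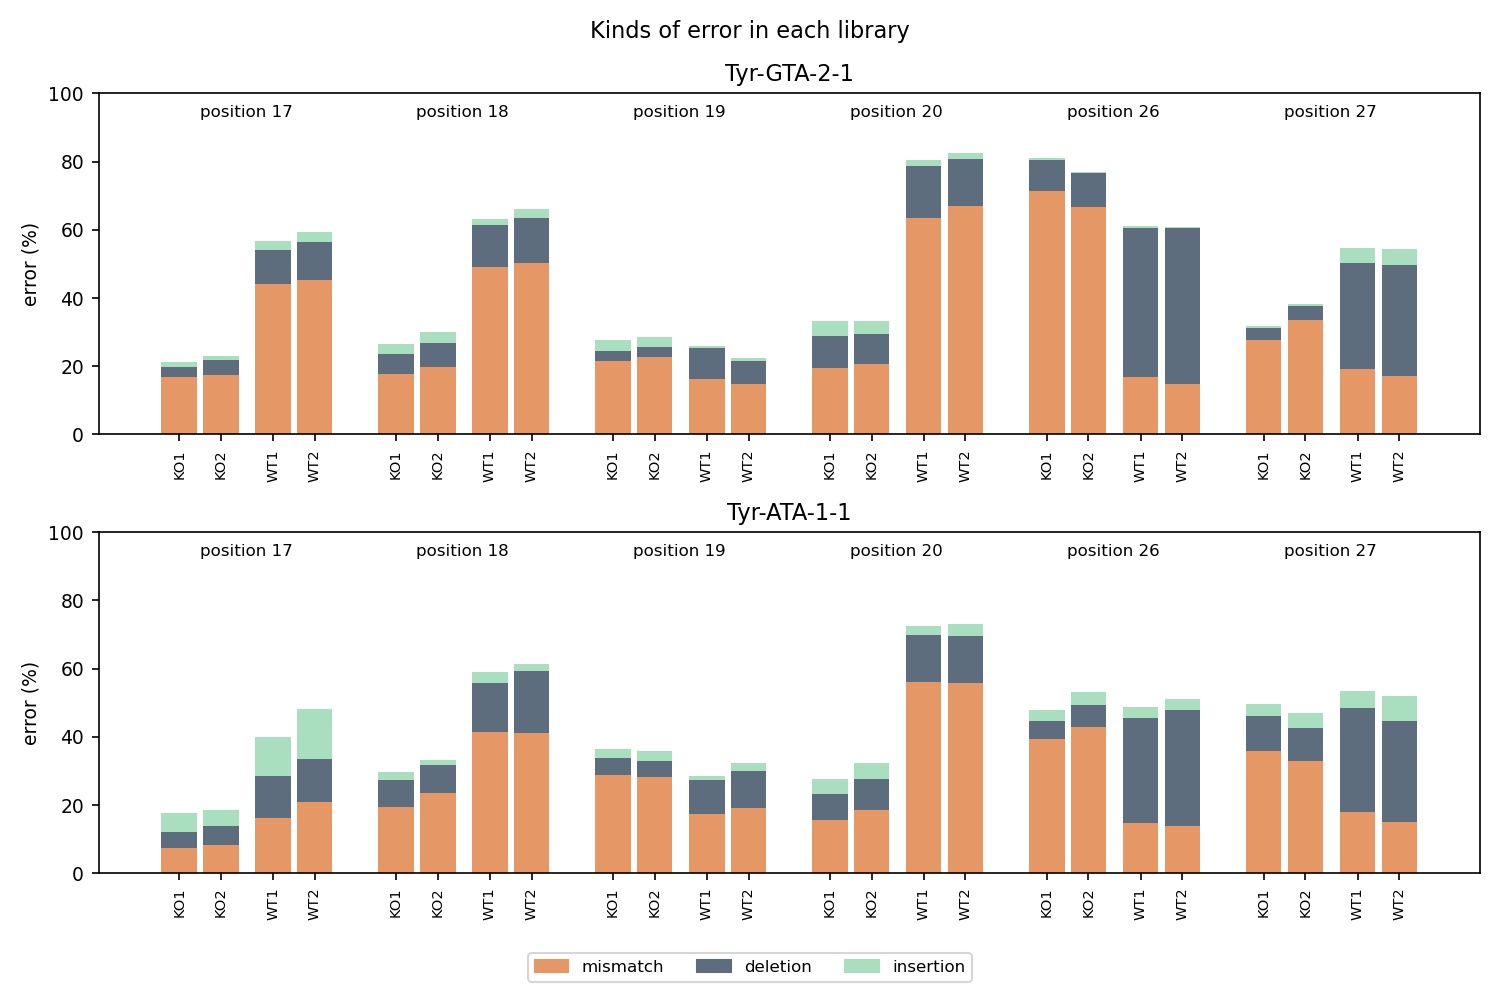
Mismatch, deletion and insertion rates (percent, stacked) in each library at 6 positions of Tyr-GTA-2-1 (top) and Tyr-ATA-1-1 (bottom), with the 2 TRMT1L KO libraries left of the 2 WT libraries at each position. At 26 and 27 deletions make up the larger part of the WT bars and mismatches that of the TRMT1L KO bars, while at 17, 18 and 20 the whole bar is shorter in TRMT1L KO.

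The largest changes of the summed error in both references lay not at 26 or 27 but in the D loop, at positions 17, 18 and 20. The D loop is named for dihydrouridine. Its guanosines at positions 18 and 19 pair with the T loop in the elbow, and position 20 carries dihydrouridine or an aminocarboxypropyl-uridine in some human tRNAs. At position 20 of Tyr-GTA-2-1 the summed error was 33.2 and 33.1% in TRMT1L KO libraries, against 80.5 and 82.4% in WT libraries. At position 20 of Tyr-ATA-1-1 it was 27.7 and 32.4% in TRMT1L KO libraries, against 72.6 and 73.1% in WT libraries. The WT libraries stood near the top of the molecule's range at position 20 and the TRMT1L KO libraries did not. The summed error fell by 48.3 points for Tyr-GTA-2-1 (adjusted p = 7.40e-07) and by 42.8 points for Tyr-ATA-1-1 (adjusted p = 5.24e-06).

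At position 18 the summed error of Tyr-GTA-2-1 was 26.6 and 30.1% in TRMT1L KO libraries, against 63.2 and 66.1% in WT libraries (change -36.3 points, adjusted p = 1.53e-05). Tyr-ATA-1-1 had 29.7 and 33.1% in TRMT1L KO libraries, against 59.05 and 61.5% in WT libraries (change -28.9 points, adjusted p = 8.64e-05). Position 17, where dihydrouridine is common, behaved likewise. For Tyr-GTA-2-1 its summed error was 21.4 and 23.1% in TRMT1L KO libraries, against 56.9 and 59.4% in WT libraries (change -35.9 points, adjusted p = 1.12e-05). For Tyr-ATA-1-1 it was 17.7 and 18.6% in TRMT1L KO libraries, against 39.96 and 48.2% in WT libraries (change -26.0 points, adjusted p = 0.000443). The groups did not overlap at any of these positions.

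Unlike at 26 and 27, mismatches and deletions fell together at 17, 18 and 20. The mismatch rate fell by 45.2 points at 20, 31 points at 18 and 27.5 points at 17 for Tyr-GTA-2-1, and by 38.9 points at 20, 19.8 points at 18 and 10.7 points at 17 for Tyr-ATA-1-1. The deletion rate fell by between 5.38 and 7.04 points at these positions for Tyr-GTA-2-1 and by between 5.51 and 8.16 points for Tyr-ATA-1-1. Mismatches made up most of the fall of the summed error at these positions, except at 17 of Tyr-ATA-1-1. There mismatches changed by -10.7 points, deletions by -7.37 points and insertions by -7.87 points. The deletion share of the summed error at position 20 was 27.01% in TRMT1L KO and 17.6% in WT for Tyr-GTA-2-1. The deletion calls at position 20 were lost without 1 library: for Tyr-GTA-2-1 without WT replicate 1 (adjusted p = 0.105) or TRMT1L KO replicate 2 (adjusted p = 0.129), and for Tyr-ATA-1-1 without TRMT1L KO replicate 1 (adjusted p = 0.199).

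Position 17 of Tyr-ATA-1-1 also had many insertions in WT. Its insertion rate was 5.54 and 4.82% in TRMT1L KO libraries, against 11.5 and 14.6% in WT libraries, and the change of -7.87 points lay just outside the threshold (adjusted p = 0.0501). For Tyr-GTA-2-1 insertions at position 17 were 1.73 and 1.24% in TRMT1L KO libraries, against 2.70 and 2.92% in WT libraries (adjusted p = 0.649).

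At position 19, between the large changes, the summed error did not pass the test while its parts did. For Tyr-ATA-1-1 its mismatch rate was 28.9 and 28.2% in TRMT1L KO libraries, against 17.2 and 19.05% in WT libraries (change 10.4 points, adjusted p = 0.0102). Its deletion rate was 4.79 and 4.80% in TRMT1L KO libraries, against 10.04 and 11.04% in WT libraries (change -5.74 points, adjusted p = 0.000633). For Tyr-GTA-2-1 the deletion rate was 3.00 and 3.02% in TRMT1L KO libraries, against 8.98 and 6.64% in WT libraries (change -4.80 points, adjusted p = 0.000633). Deletions at 19 thus fell in both references. Insertions at 19 of Tyr-GTA-2-1 rose by 2.43 points (adjusted p = 0.0396), and mismatches there were 6.39 points higher without passing the test (adjusted p = 0.121). The Tyr-ATA-1-1 mismatch call was lost without WT replicate 1 (adjusted p = 0.0835), and the insertion call without any 1 of the 4 libraries (adjusted p between 0.0706 and 0.412).

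The D stem, whose strands run from 10 to 13 and from 22 to 25, changed less. At position 22 the summed error of Tyr-GTA-2-1 was 12.6 and 14.3% in TRMT1L KO libraries, against 24.1 and 22.7% in WT libraries (change -9.95 points, adjusted p = 0.0124). Tyr-ATA-1-1 had 15.0 and 13.5% in TRMT1L KO libraries, against 21.8 and 22.2% in WT libraries (change -7.76 points, adjusted p = 0.0481). Position 22 fell in both references, but the Tyr-ATA-1-1 call was lost without TRMT1L KO replicate 2 (adjusted p = 0.0827). Mismatches carried the change for Tyr-GTA-2-1, with a change of -8.45 points (adjusted p = 0.00211).

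The 3' strand of the D stem of Tyr-GTA-2-1 was mixed: past the fall at 22, the summed error rose at 23 and 24. At 25 it was 4.11 points higher without passing the test (adjusted p = 0.644). At position 24 the summed error of Tyr-GTA-2-1 was 20.1 and 23.4% in TRMT1L KO libraries, against 11.8 and 10.5% in WT libraries (change 10.6 points, adjusted p = 0.00997). At position 23 it was 10.8 and 12.1% in TRMT1L KO libraries, against 6.30 and 5.76% in WT libraries (change 5.40 points, adjusted p = 0.0419). With insertions left out of the sum, neither call held (adjusted p = 0.117 at 24 and 0.0579 at 23). Deletions rose by 2.22 points at 23 (adjusted p = 0.0277) and by 3.49 points at 25 (adjusted p = 0.0423), and insertions rose by 3.42 points at 24 (adjusted p = 0.00813). These small calls rest on few libraries: the deletion call at 25 was lost without WT replicate 1, WT replicate 2 or TRMT1L KO replicate 2, that at 23 without WT replicate 1, WT replicate 2 or TRMT1L KO replicate 1, and the insertion call at 24 without either TRMT1L KO library.

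For Tyr-ATA-1-1 the summed error at 24 was 19.4 and 19.6% in TRMT1L KO libraries, against 18.9 and 18.8% in WT libraries (change 0.649 points, adjusted p = 0.949). The summed error at 25 was 27.9 and 28.8% in TRMT1L KO libraries, against 24.96 and 20.2% in WT libraries (adjusted p = 0.421). Neither passed the test in this reference with all 4 libraries, and position 25 was called without WT replicate 1 (change 8.17 points, adjusted p = 0.0483).

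Position 13, at the other end of the D stem, rose in a different kind of error in each reference. Mismatches there rose by 7.85 points for Tyr-GTA-2-1 (adjusted p = 0.0479), and deletions rose by 7.73 points for Tyr-ATA-1-1 (adjusted p = 0.0466). The first call was lost without WT replicate 1, WT replicate 2 or TRMT1L KO replicate 1 and the second without WT replicate 1, TRMT1L KO replicate 1 or TRMT1L KO replicate 2. Position 10, a known site of guanosine methylation in tRNA, had a summed error 5.55 points lower for Tyr-GTA-2-1 (adjusted p = 0.448) and 6.49 points lower for Tyr-ATA-1-1 (adjusted p = 0.448), without passing the test. Deletions at position 16 of Tyr-GTA-2-1 fell by 6.52 points (adjusted p = 0.00202). The summed error at 16 of Tyr-ATA-1-1 was 5.19 points higher without passing the test (adjusted p = 0.498), and was called without WT replicate 1 (change 8.20 points, adjusted p = 0.0278).

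Averaged over the 8 nucleotides of the D loop, the summed error was 34.8 and 36.5% in TRMT1L KO libraries, against 50.4 and 49.9% in WT libraries, for Tyr-GTA-2-1. The Tyr-ATA-1-1 mean was 28.5 and 30.2% in TRMT1L KO libraries, against 39.4 and 39.8% in WT libraries. The D loop was the region with the largest mean change among the regions of more than 1 nucleotide in both references. That mean does not describe every nucleotide of the loop, as limma called falls at 3 of the 8 in each reference. The change was positive at 3 of 8 for Tyr-GTA-2-1 (up to 9.09 points) and at 4 of 8 for Tyr-ATA-1-1 (up to 5.67 points). The median change over the loop was -6.47 points for Tyr-GTA-2-1 and 0.439 points for Tyr-ATA-1-1. The D stem averaged 27.7 ± 1.18% in TRMT1L KO and 26.9 ± 0.468% in WT for Tyr-GTA-2-1, and 27.7 ± 0.719% in TRMT1L KO and 28.2 ± 0.206% in WT for Tyr-ATA-1-1 (SD, n = 2 each).

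**Figure D2:**
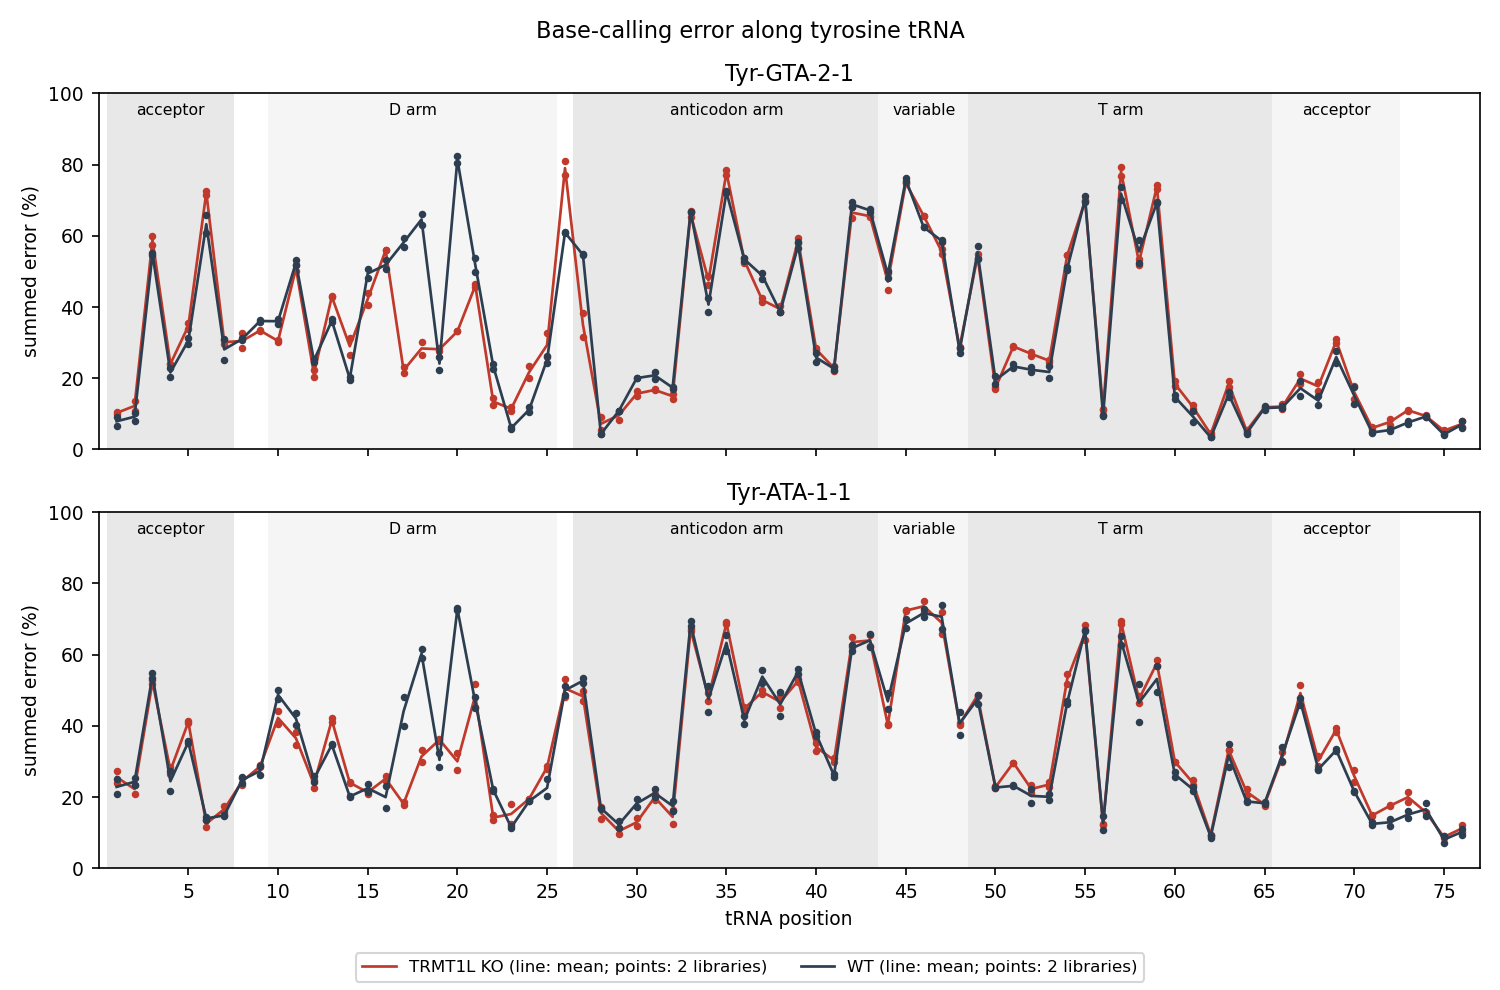
Summed error (percent) at each of the 76 positions of Tyr-GTA-2-1 (top) and Tyr-ATA-1-1 (bottom), with points for single libraries and lines for the means of TRMT1L KO (red) and WT (dark). The lines part at 17, 18 and 20 in both panels and at 26 and 27 in the upper one, and run close together from 32 to 76.

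Rises and falls counted over the molecule are those called by limma. The summed error of Tyr-GTA-2-1 rose at 3 and fell at 5 of its 76 positions. That of Tyr-ATA-1-1 rose at 0 and fell at 4. Over all 3621 positions of the 48 references 0.608% passed this test in either direction, 0.221% as rises and 0.387% as falls. In limma without adjustment, 30 positions of Tyr-GTA-2-1 and 23 of Tyr-ATA-1-1 had a p under 0.05 for the summed error, against 9.36% of all positions. The mismatch rate rose at 3 and fell at 4 positions of Tyr-GTA-2-1, and rose at 3 and fell at 3 of Tyr-ATA-1-1, with 0.552% of all positions called, 0.221% as rises and 0.331% as falls. The deletion rate rose at 2 and fell at 9 positions of Tyr-GTA-2-1, and rose at 1 and fell at 6 of Tyr-ATA-1-1, with 1.19% of all positions called, 0.58% as rises and 0.608% as falls. Deletion calls in tyrosine tRNA were thus mostly falls.

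Insertions rose at 2 and fell at 1 of the positions of Tyr-GTA-2-1, with 0.0829% of all positions called, 0.0552% as rises and 0.0276% as falls. For Tyr-ATA-1-1 limma called 0 insertion rates, while 18 of 76 had an unadjusted p under 0.05, against 5.69% of all positions. The number of mismatch calls for Tyr-GTA-2-1 was 11 without TRMT1L KO replicate 1, and the number of its insertion calls was 0 without TRMT1L KO replicate 1 or 2. Insertion calls for Tyr-ATA-1-1 numbered 2 without WT replicate 1.

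Both references were called at the same positions in part. The summed error was called in both at 4 positions, 17, 18, 20 and 22. Mismatches were called in both at 5 positions, 17, 18, 20, 26 and 27, and deletions at 6, namely 17 to 20, 26 and 27. Each of these shared calls had the same direction in both references. Of the 14 positions of Tyr-GTA-2-1 called for any rate, 6 were called for a single kind of error and not for the sum, and for Tyr-ATA-1-1 this held for 4 of 8, among them 26 and 27.

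**Figure D3:**
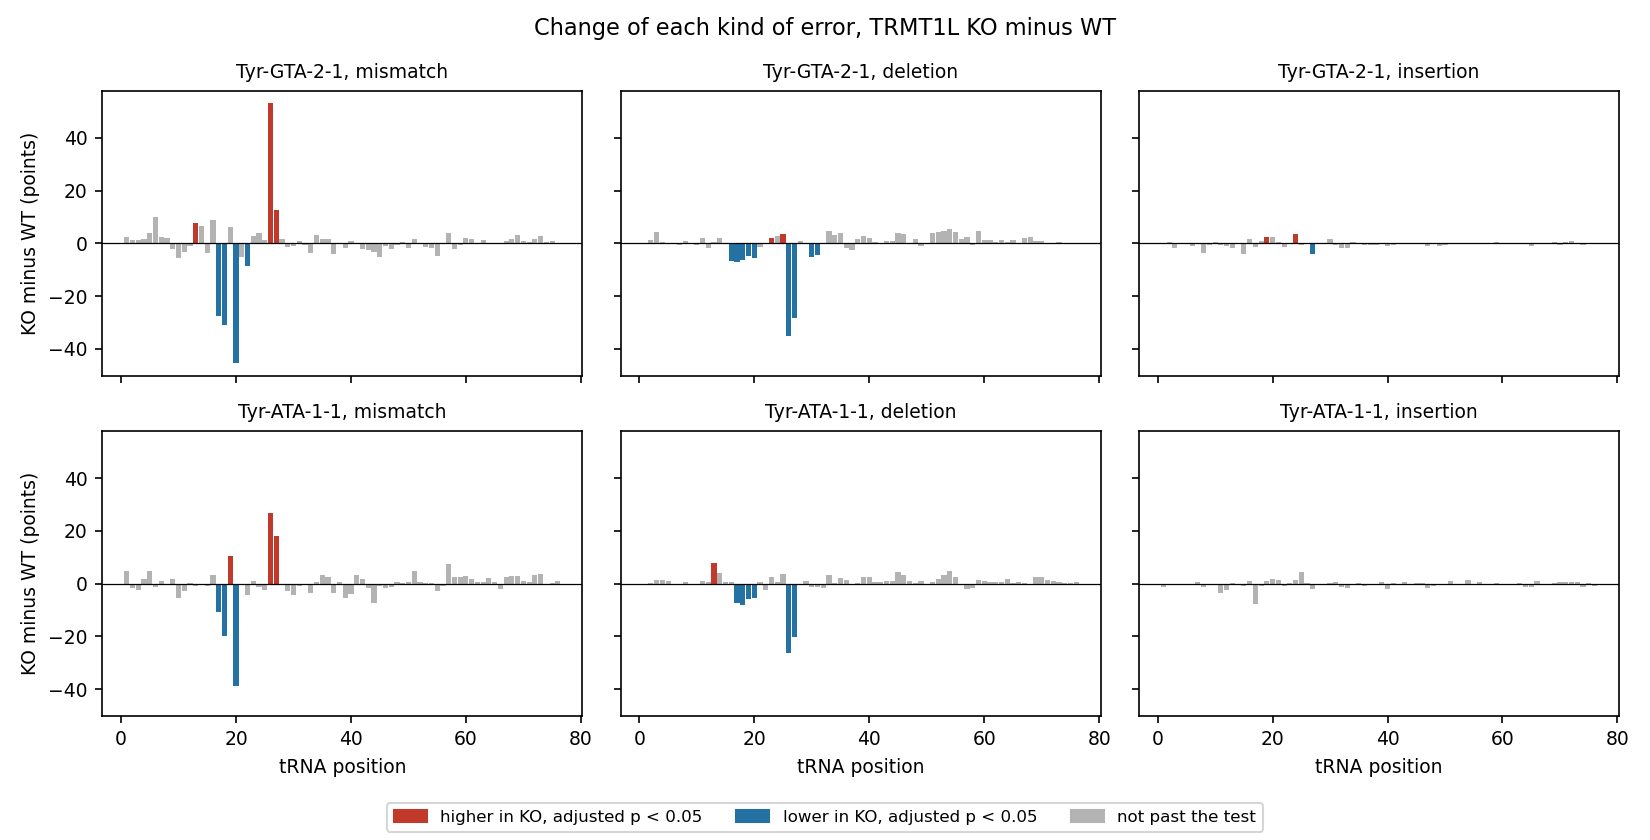
TRMT1L KO minus WT difference (percentage points) of the mismatch, deletion and insertion rates at each position, Tyr-GTA-2-1 above Tyr-ATA-1-1, with calls coloured. Mismatches and deletions point in opposite directions at 26 and 27 and in the same direction at 17, 18 and 20.

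Every call in either tyrosine reference lay between positions 10 and 31, a window set after the values were seen. Within it, the anticodon stem of Tyr-GTA-2-1 had falls of deletions at 30 (-5.11 points, adjusted p = 0.000633) and 31 (-4.37 points, adjusted p = 0.00613). At position 30 the summed error was 15.1 and 16.3% in TRMT1L KO libraries, against 20.0 and 20.2% in WT libraries, for Tyr-GTA-2-1 (adjusted p = 0.353). For Tyr-ATA-1-1 it was 13.99 and 11.8% in TRMT1L KO libraries, against 19.4 and 17.1% in WT libraries (adjusted p = 0.262). Both references were lower in TRMT1L KO at 30 without passing the test for the sum.

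Positions 28 and 29 of Tyr-GTA-2-1, next to 27 in the stem, had low error in both genotypes. At 28 the summed error of Tyr-GTA-2-1 was 5.44 and 8.99% in TRMT1L KO libraries, against 4.23 and 4.43% in WT libraries (adjusted p = 0.448), and it was called without TRMT1L KO replicate 1 (adjusted p = 0.0126). At 29 it was 8.26 and 10.9% in TRMT1L KO libraries, against 10.8 and 10.9% in WT libraries (adjusted p = 0.834). Neither neighbour was called with all 4 libraries.

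The 54 positions outside that window had 0 limma calls for the summed error in either reference, which follows from drawing the window around every call. Without adjustment 14 of them for Tyr-GTA-2-1 and 11 for Tyr-ATA-1-1 had a p under 0.05, against 9.36% of all 3621 positions. Their changes ran between -6.85 and 8.90 points for Tyr-GTA-2-1, with a median of 1.35 points, and between -6.60 and 6.57 points for Tyr-ATA-1-1, with a median of 1.39 points. The largest was at position 6 of the acceptor stem, where Tyr-GTA-2-1 had 71.6 and 72.8% in TRMT1L KO libraries, against 60.7 and 65.9% in WT libraries (adjusted p = 0.185).

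The anticodon loop, which reads the codon, carries known modifications in tyrosine tRNA, among them pseudouridine at 35 and a methylated guanosine at 37. With the GTA anticodon, galactosyl-queuosine stands in place of the guanosine at 34. The ATA anticodon of Tyr-ATA-1-1 has no guanosine at 34. The loop averaged 48.7 ± 0.054% in TRMT1L KO and 48.3 ± 0.486% in WT for Tyr-GTA-2-1, and 48.5 ± 0.992% in TRMT1L KO and 48.4 ± 0.281% in WT for Tyr-ATA-1-1 (SD, n = 2 each). At 34 the summed error of Tyr-GTA-2-1 was 46.2 and 48.8% in TRMT1L KO libraries, against 38.7 and 42.7% in WT libraries (change 6.80 points, adjusted p = 0.421). At 37 it was 42.6 and 41.4% in TRMT1L KO libraries, against 47.97 and 49.7% in WT libraries (change -6.85 points, adjusted p = 0.330). For Tyr-ATA-1-1 the difference was 0.578 points at 34 (adjusted p = 0.977) and -4.28 points at 37 (adjusted p = 0.597).

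The groups did not overlap at these Tyr-GTA-2-1 positions, but the differences did not pass the test. At 35 the difference was 5.52 points for Tyr-GTA-2-1 (adjusted p = 0.319) and 5.48 points for Tyr-ATA-1-1 (adjusted p = 0.479). At 32 it was -2.41 points for Tyr-GTA-2-1 and -3.07 points for Tyr-ATA-1-1, and at 39, a pseudouridine site at the start of the stem's second strand, 1.42 points for Tyr-GTA-2-1 and -2.54 points for Tyr-ATA-1-1. The adjusted p at 32 and 39 was at least 0.626.

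The variable region, whose position 46 bears methylguanosine in some tRNAs and whose end is a site of cytosine methylation, averaged 54.4 ± 0.918% in TRMT1L KO and 54.8 ± 0.155% in WT for Tyr-GTA-2-1, and 59.1 ± 1.43% in TRMT1L KO and 59.7 ± 2.46% in WT for Tyr-ATA-1-1 (SD, n = 2 each). At 46 the summed error was 65.7 and 65.5% in TRMT1L KO libraries, against 62.4 and 62.4% in WT libraries, for Tyr-GTA-2-1 (adjusted p = 0.664). The differences at 47, 48 and 49 lay between -2.98 and 1.01 points in both references. None of the named positions of this region was called with all 4 libraries.

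The T arm holds the methyluridine at 54, the pseudouridine at 55 and the methyladenosine at 58. At 55, summed error was 69.8 and 69.99% in TRMT1L KO libraries, against 69.5 and 71.2% in WT libraries, for Tyr-GTA-2-1. At 58 it was 51.7 and 53.6% in TRMT1L KO libraries, against 52.3 and 58.9% in WT libraries, and the groups overlapped at both positions. At 54 it was 3.70 points higher for Tyr-GTA-2-1 (adjusted p = 0.644) and 6.57 points higher for Tyr-ATA-1-1 (adjusted p = 0.383). The T loop averaged 51.3 ± 0.466% in TRMT1L KO and 48.9 ± 1.07% in WT for Tyr-GTA-2-1, and 47.95 ± 1.09% in TRMT1L KO and 45.1 ± 2.26% in WT for Tyr-ATA-1-1 (SD, n = 2 each). The T stem averaged 20.4 ± 0.276% in TRMT1L KO and 18.7 ± 0.324% in WT for Tyr-GTA-2-1 (SD, n = 2 each). For Tyr-ATA-1-1 it averaged 25.3 ± 0.009% in TRMT1L KO and 23.3 ± 1.08% in WT (SD, n = 2 each). The groups did not overlap in summed error at 5 of 7 T loop and 8 of 10 T stem positions of Tyr-GTA-2-1. For Tyr-ATA-1-1 this held at 3 of 7 and 5 of 10, against 38.8% of all 3621 positions. Limma called none of these.

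In the acceptor stem all 14 positions of Tyr-GTA-2-1 had a higher mean in TRMT1L KO, by 0.199 to 8.90 points. For Tyr-ATA-1-1 this held at 10 of 14, and limma called none of them in either reference. Across the other references, 2443 of 3469 positions had a higher mean summed error in TRMT1L KO. At positions 8 and 9, the link to the D arm, the mean was 31.95 ± 1.47% in TRMT1L KO and 33.6 ± 0.528% in WT for Tyr-GTA-2-1, and 26.5 ± 0.956% in TRMT1L KO and 26.1 ± 1.45% in WT for Tyr-ATA-1-1 (SD, n = 2 each). A small general rise was present across the series too: the mean summed error over all 3721 tRNA nucleotides was 31.9 and 32.1% in TRMT1L KO libraries, against 31.1 and 31.2% in WT libraries. The 14 adaptor nucleotides behind Tyr-GTA-2-1, which carry no modification, averaged 22.1 and 23.9% in TRMT1L KO libraries, against 25.4 and 22.2% in WT libraries.

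Non-overlap of the libraries was common across the tables. The TRMT1L KO and WT libraries did not overlap in summed error at 57 of 76 positions of Tyr-GTA-2-1 (75%) and at 43 of 76 of Tyr-ATA-1-1 (56.6%), against 38.8% of all 3621 positions. For mismatches this held at 50 positions of Tyr-GTA-2-1 and 40 of Tyr-ATA-1-1 (36.3% of all positions), for deletions at 48 of Tyr-GTA-2-1 and 35 of Tyr-ATA-1-1 (42.5%), and for insertions at 41 of Tyr-GTA-2-1 and 33 of Tyr-ATA-1-1 (33.3%). The median absolute change of the summed error was 2.99 points for Tyr-GTA-2-1 and 2.38 points for Tyr-ATA-1-1, against 1.31 points over the positions of the other references. The signed medians were 1.04 points for Tyr-GTA-2-1, 0.857 points for Tyr-ATA-1-1 and 0.817 points in the other references. With 2 libraries a group, an exact permutation test of a single position cannot give a two-sided p below 0.333.

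Each position was next set against the same position of the other references. Within every library the median of the other amino acids' references was subtracted, and the change of that difference was tested with limma over 3604 positions of all references. For the summed error the change differed from the other references at 18, 20 and 26 of Tyr-GTA-2-1 and at 18 and 20 of Tyr-ATA-1-1, with 0.166% of all positions called. Position 20 of Tyr-GTA-2-1 was 5.79 points below the median of the others in TRMT1L KO and 41.5 points above it in WT (adjusted p = 0.000282). Position 17 could not be set against them because only 12 other references have a nucleotide with that number.

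For mismatches the change differed at 18, 20 and 26 of Tyr-GTA-2-1 and at 18, 20, 26 and 27 of Tyr-ATA-1-1, with 0.25% of all positions called. For deletions it differed at 26 and 27 of both references, with 0.111% called. At position 27, deletions of Tyr-GTA-2-1 lay -8.87 points from the median of the others in TRMT1L KO and 18.8 points in WT (adjusted p = 0.00262), and those of Tyr-ATA-1-1 lay -2.56 points in TRMT1L KO and 16.996 points in WT (adjusted p = 0.00742). At position 26 they lay -3.74 points in TRMT1L KO and 32.002 points in WT for Tyr-GTA-2-1 (adjusted p = 0.005), and -7.42 points in TRMT1L KO and 19.8 points in WT for Tyr-ATA-1-1 (adjusted p = 0.0216). The tyrosine references thus stood above the median of the others in WT and below it in TRMT1L KO.

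These deletion calls rest on both knockout libraries: without TRMT1L KO replicate 1 or without TRMT1L KO replicate 2, 0 deletion rates of either reference passed this test, and Tyr-ATA-1-1 had 2 mismatch calls in place of 4. The summed error at 27 of Tyr-GTA-2-1 did not differ past the threshold from the other references (-18.6 points, adjusted p = 0.192). No insertion rate was called by limma, and 26 of the tyrosine insertion rates had an unadjusted p under 0.05, against 5.63% of all 3604 rates tested.

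The rank among the 48 references shows how far the positions moved. Tyr-GTA-2-1 had rank 32 from the top for deletions at 26 in TRMT1L KO and rank 1 in WT, and rank 38 for deletions at 27 in TRMT1L KO and rank 4 in WT. The top rank at 26 in WT was close, with a mean of 44.6% for Tyr-GTA-2-1 and 44.3% for Val-CAC-1-1. For mismatches at 26 Tyr-GTA-2-1 had rank 3 in TRMT1L KO and rank 31 in WT. For the summed error at 18 it had rank 37 in TRMT1L KO and rank 1 in WT. Tyr-ATA-1-1 did not reach the top rank in WT. It had rank 42 for deletions at 26 in TRMT1L KO and rank 10 in WT, and rank 27 for deletions at 27 in TRMT1L KO and rank 5 in WT. Its rank for mismatches at 26 was 22 in TRMT1L KO and 34 in WT, and for the summed error at 18 it was 33 in TRMT1L KO and 3 in WT. At 27, the deletion changes of the other 46 references ran between -4.68 and 3.45 points and at 26 between -3.16 and 5.15 points, so that both tyrosine references lay outside these ranges.

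At position 20 the change of the summed error in the others ran between -30.98 and 5.03 points. Limma called 3 of the 46 as falls there, against 0.387% of all 3621 positions. Both tyrosine references fell further than any of the 46. The other references with the most similar change profiles had mismatch changes at 20 of -17.7 points (Ala-CGC-2-1), -12.0 points (Ala-TGC-3-1) and -20.2 points (Cys-GCA-3-1). At position 26, limma called 1 of the 46 as a rise in summed error, against 0.221% of all 3621 positions.

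**Figure D4:**
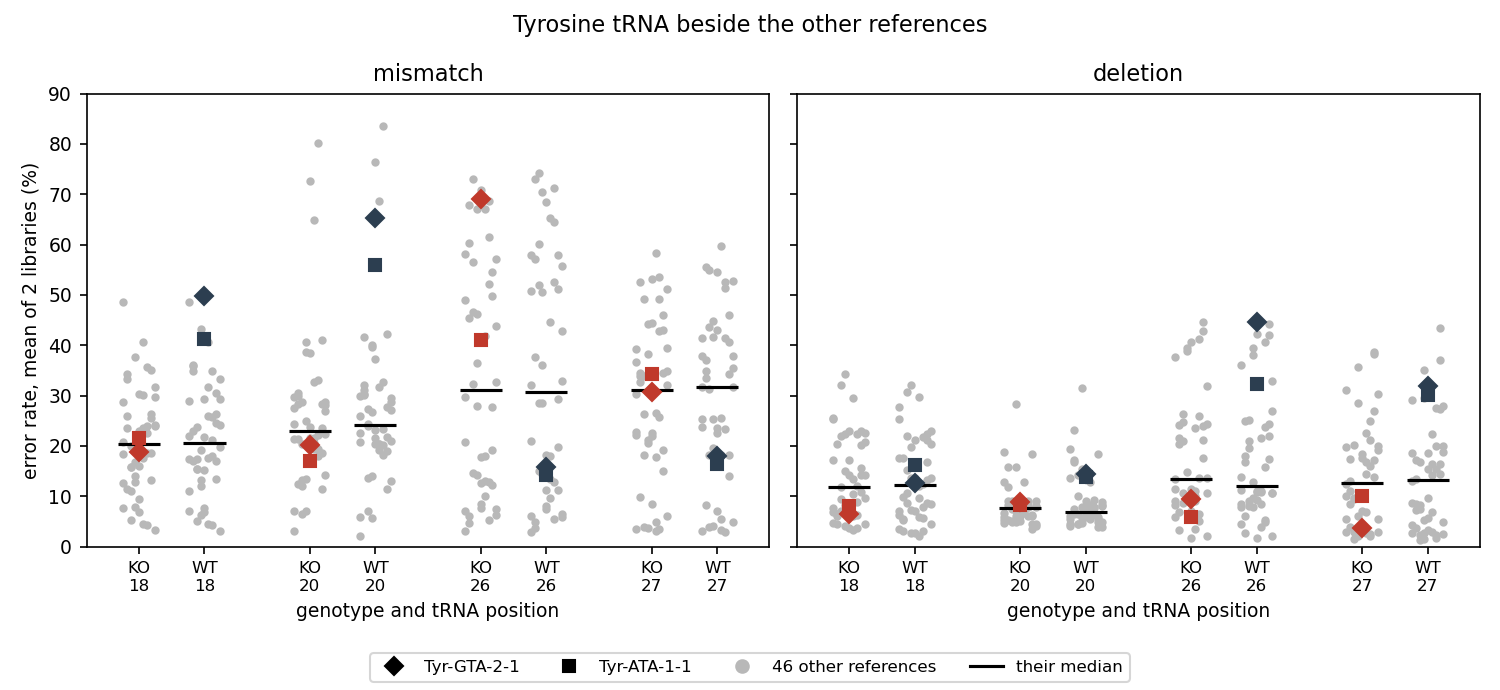
Mismatch (left) and deletion (right) rates at 4 positions in TRMT1L KO and WT, mean of 2 libraries in percent, for Tyr-GTA-2-1 (diamonds), Tyr-ATA-1-1 (squares) and the 46 other references (grey, with their median as a bar). At each position the tyrosine symbols move between the genotypes while the median of the others stays nearly level.

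The references also differed from each other in size of change, but the test of that difference called none of their 76 shared positions. Tyr-GTA-2-1 minus Tyr-ATA-1-1, the change at 26 differed by 26.3 points for mismatches (standard error 2.86 points, adjusted p = 0.457) and by 17.6 points for the summed error (standard error 3.14 points, adjusted p = 0.556). At 27 the difference between the references was -15.2 points for the summed error (standard error 3.18 points, adjusted p = 0.588) and -8.16 points for deletions (standard error 1.09 points, adjusted p = 0.589). The lowest adjusted p of this limma test was 0.297, for mismatches at position 17, and 0 positions of the 3611 tested over 48 pairs of references of the same amino acid were called for any kind of error. Without adjustment, 17 tyrosine positions for the summed error, 18 for mismatches, 10 for deletions and 7 for insertions had a p under 0.05. Over all pairs this held for 5.73% of positions for the summed error, 4.85% for mismatches, 6.01% for deletions and 5.04% for insertions. Differences of this size between the references were therefore not resolved, and reads shared between them, which would make them alike, were not assessed.

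The shape of the error along the molecule placed the tyrosine references together. In WT, the summed error of Tyr-GTA-2-1 correlated across 76 positions most with Tyr-ATA-1-1 (Pearson r = 0.861), Lys-TTT-3-3 (r = 0.694) and Lys-CTT-3-1 (r = 0.657), with a median of 0.490 over the other 47 references. For Tyr-ATA-1-1 the next after Tyr-GTA-2-1 were Lys-TTT-3-3 (r = 0.684) and Lys-CTT-3-1 (r = 0.623). Positions of one library share its depth and base caller and are not independent replicates.

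The profile of change of Tyr-GTA-2-1 was most like those of Tyr-ATA-1-1 (r = 0.891), Ala-CGC-2-1 (r = 0.719) and Ala-TGC-3-1 (r = 0.706). That of Tyr-ATA-1-1 was next most like those of Cys-GCA-3-1 (r = 0.694) and Ala-CGC-2-1 (r = 0.661). The median over the others was 0.0352 for Tyr-GTA-2-1 and 0.0851 for Tyr-ATA-1-1. All references were read in the same 4 libraries, so these values describe likeness within them and are not separate evidence.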

How the data were processed

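Per the file headers, the authors deposited mismatch, deletion and insertion rates as a fraction of 0 to 1 for each library, 12 sheets of 48 references by 90 nucleotides, and a sheet numbering the nucleotides. BWA, SAMtools and bedtools were used, per the submitters' processing notes. Versions, base caller, read filters, multi-mapping, genome build and read depth are not stated in the labels or headers used here. No depth was inferred, so no counting interval is given and values were not weighted.

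Here the 3 rates were added, printed as percentages, transformed to the arcsine square root and tested with limma 3.58.1 (trend, robust) in R 4.3.3, TRMT1L KO minus WT, over 3621 positions; the 100 unnumbered nucleotides and 599 adaptor nucleotides stayed out. Differences between references were tested on within-library differences in percentage points (robust, no trend). The fits were also run on simulated data with independent noise and with spreads shuffled between positions. Because of that shuffling, the run cannot show how well the trend setting holds for these data. Python 3.11.15 and pandas 2.3.3 served for the rest.

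Named positions were those called in either reference, known modification sites and the neighbours of 27; position 6 was added after its values were seen. Members and lists were chosen with earlier results of these data known. Same-numbered libraries did not deviate together (correlation -0.251 for the summed error, -0.130 for deletions). A negative value means that TRMT1L KO replicate 1 tended to deviate with WT replicate 2. With 2 pairs this cannot decide whether libraries were paired, and the main fit took them as unpaired. Alternatives were other transformations, filters, centring, replicate blocks and leaving out each library. No tRNA sequence was used here.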

Additional observations from a re-analysis of the deposited data

How the results depend on the processing

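Of 46 called values of single positions, 30 kept their call under every alternative tried, among them the deletion calls at 26 and 27 and the summed and mismatch calls at 17, 18 and 20 in both references; 3 of 50 uncalled values gained one. The replicate block, whose numbers are not shown to pair the libraries, gave 0 insertion calls for Tyr-GTA-2-1 (adjusted p 0.579 at 19, 0.43 at 24 and 0.422 at 27), ended the summed calls at 23 of Tyr-GTA-2-1 and 22 of Tyr-ATA-1-1 (adjusted p = 0.107 each), called 1 summed difference between the tyrosine references and left 0 deletion differences of Tyr-ATA-1-1 from other references. The crossed replicate block, added after seeing the data, gave 14 mismatch, 6 deletion and 6 insertion calls for Tyr-GTA-2-1 and 2 insertion calls for Tyr-ATA-1-1. Without insertions in the sum, the calls at 23 (adjusted p = 0.0579) and 24 (adjusted p = 0.117) of Tyr-GTA-2-1 were lost. Tyr-ATA-1-1 had 1 insertion call without trend and robust settings, with a mean error of at least 1%, with unnumbered nucleotides or with library medians centred. On the arcsine square root scale, differences from other references numbered 6 (summed), 6 (mismatch), 8 (deletion) and 2 (insertion) for Tyr-GTA-2-1 and 5 (deletion) for Tyr-ATA-1-1, and 1 deletion rate differed between the tyrosine references. The cause of these shifts was not tested.

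Leaving out each library gave 5 to 11 mismatch calls and 0 to 2 insertion calls for Tyr-GTA-2-1, and 0 to 2 insertion calls for Tyr-ATA-1-1. Differences from other references then numbered 0 to 2 for deletions of each reference and 2 to 4 for mismatches of Tyr-ATA-1-1. All 32 reversals were at uncalled positions (adjusted p at least 0.589). Without a library, the summed change of Tyr-GTA-2-1 ran between -2.68 and 1.54 points at 8, -2.57 and 0.108 at 29, -2.97 and 0.752 at 49, -1.32 and 0.37 at 55, and -6.28 and 0.307 at 58. That of Tyr-ATA-1-1 ran between -1.51 and 0.668 at 8, -0.00465 and 2.53 at 9, -2.03 and 3.07 at 26, -2.92 and 0.239 at 28, -3.04 and 4.19 at 34, -5.01 and 1.67 at 47, -3.38 and 3.04 at 48, -0.253 and 2.28 at 49, -2.79 and 1.32 at 55, and -4.36 and 6.28 at 58. With library medians centred it was -0.253 points at 48 of Tyr-GTA-2-1, and -0.00283 at 9, -0.617 at 24, -0.743 at 26, -0.689 at 34, -0.255 at 49 and -0.306 at 58 of Tyr-ATA-1-1. Without insertions it was 2.94 points at 8 of Tyr-GTA-2-1, and 0.729 at 8, -0.629 at 24 and 0.645 at 48 of Tyr-ATA-1-1. The region means kept their direction or moved by less than the spread between libraries. Read depth is unknown, so what it limits could not be given.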
